A study of Mus musculus with 11 samples.

Results

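The MiT/TFE family consists of the transcription factors Mitf, Tfec, Tfeb and Tfe3. Its 4 genes were taken by symbol from the 21684 genes of the deposited count table, and all 4 were found and passed the filter on low counts. Tfec was chosen by its own values, because it was unread in wild-type cells and read in 2 of the knockouts. Its level against wild type is therefore given as a description with no test, and it supports nothing further. Mitf, Tfeb and Tfe3 were taken by family name.

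RNA was sequenced from NIH/3T3, a mouse embryonic fibroblast line, kept in serum-free medium for 24 h to induce primary cilia. Wild type (WT) had 2 libraries, and the Xap5 KO, Nono KO and Sox5 KO genotypes had 3 each, giving 11 libraries that all shared the serum starvation. The study set out to find genes that depend on Xap5, Nono and Sox5 during cilium formation. The series text speaks of 1 line for each knockout. The labels name no clone, guide or allele and do not say whether replicates came from separate cultures, so p-values measure only the spread between these libraries. Xap5 is the mouse gene Fam50a.

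MiT/TFE proteins are basic helix-loop-helix leucine zipper factors that bind E-box DNA as homodimers or as heterodimers within the family. In fed cells, mTORC1 at the lysosome phosphorylates Tfeb and Tfe3, which keeps them in the cytoplasm. During starvation or lysosomal stress they enter the nucleus and switch on lysosomal and autophagy genes through the CLEAR motif, an extended E-box. Mitf is best known from melanocytes, the retinal pigment epithelium, osteoclasts and mast cells, and Tfec from macrophages. An mRNA count shows neither phosphorylation nor nuclear entry.

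Library depth ran from 30205878 to 43498383 counts, and the common biological coefficient of variation over all genes was 10.6%. The targeted genes were checked by their level in CPM, counts scaled to a common library size with TMM factors. Fam50a lay at 7.49 to 7.91 CPM in the Xap5 knockout against 62.9 to 64.8 in WT, and Nono at 27.6 to 34.0 CPM in the Nono knockout against 350.8 to 357.4 in WT. Sox5 lay at 12.6 to 13.9 CPM in the Sox5 knockout against 45.9 to 49.7 in WT, but also at 11.9 to 15.02 in the Xap5 knockout and 7.01 to 8.75 in the Nono knockout, so its level does not tell the Sox5 knockout libraries from the other knockouts. The 15 fibroblast markers, among them collagens and Pdgfra, all passed the filter. Of the 23 macrophage markers, 8 passed it, and Csf3r, Tyrobp and C1qc had no counts in any library.

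Tfec was silent in WT and was read at a middling level in the Xap5 knockout and the Nono knockout. It had 0 counts in both WT libraries. In the Xap5 knockout libraries it had 999, 1227 and 1118 counts, or 25.7, 29.9 and 28.8 CPM. In the Nono knockout libraries it had 496, 467 and 406 counts, or 12.2, 11.4 and 11.2 CPM. The Sox5 knockout resembled WT, with 1, 4 and 0 counts. Every Xap5 knockout library thus lay above every Nono knockout library, and every Nono knockout library above all WT and Sox5 knockout libraries.

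Against a floor of 3 counts in the shallower WT library, the mean Tfec level of 28.1 ± 2.16 CPM (SD, n = 3) in the Xap5 knockout was at least 378-fold higher than in WT. The mean of 11.6 ± 0.552 CPM (SD, n = 3) in the Nono knockout was at least 156-fold higher. Both bounds cover counting error only. Among the 13332 tested genes, the CPM of Tfec stood at the 51.0th percentile in the Xap5 knockout and the 33.5th percentile in the Nono knockout. The comparison of these knockouts with each other was not used to choose Tfec. Tfec was 2.42-fold higher in the Xap5 knockout than in the Nono knockout, a log2 difference of 1.28 ± 0.156 (SE; edgeR quasi-likelihood test, Benjamini-Hochberg adjusted p = 8.83e-07). In that comparison 53% of all tested genes were called at an adjusted p under 0.05, in either direction. From bulk RNA, more cells reading Tfec and more Tfec RNA per cell cannot be told apart.

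The pattern by which Tfec was chosen was also counted over all genes, as a description that supports nothing. Of the tested genes, 198 had 0 counts in both WT libraries. Of these, 10 had over 100 counts in every Xap5 knockout library and 3 in every Nono knockout library. The 2 that did so in both knockouts were Tfec and Mmp3, a matrix metalloproteinase. Mmp3 had 3730, 4084 and 3868 counts in the Xap5 knockout and 976, 917 and 853 in the Nono knockout. Unlike Tfec, Mmp3 was also read in the Sox5 knockout, with 2227, 1982 and 2054 counts.

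**Figure D1:**
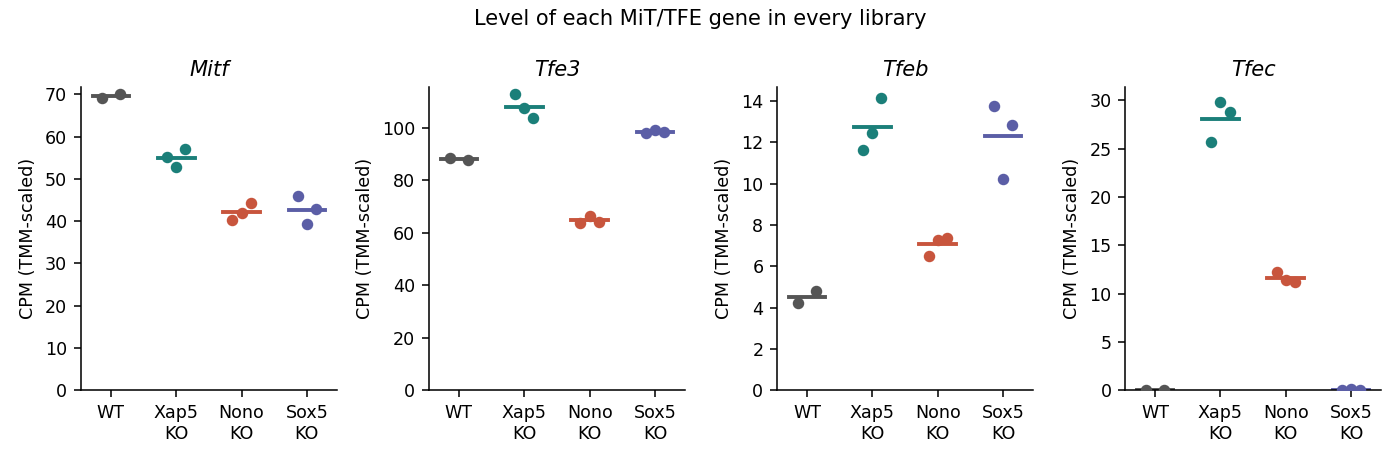
Level of Mitf, Tfe3, Tfeb and Tfec in each of the 11 libraries, in TMM-scaled CPM on the vertical axis of each panel, with points for libraries and bars for group means. Tfec lies at 11.2 to 29.9 CPM in the Xap5 knockout and the Nono knockout and at or near 0 elsewhere, Tfeb is lowest in WT, and Mitf is highest in WT.

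The sequence next to the Tfec start is shown because this is the member that went from unread to read. RefSeq, on GRCm38.p6, gives 1 start for Tfec in its promoter table, at chr6:16898442-16898691 on the - strand for the 250 bases before it, printed 5′ to 3′ in lower case because none of the motifs searched was in it.
Tfec promoter: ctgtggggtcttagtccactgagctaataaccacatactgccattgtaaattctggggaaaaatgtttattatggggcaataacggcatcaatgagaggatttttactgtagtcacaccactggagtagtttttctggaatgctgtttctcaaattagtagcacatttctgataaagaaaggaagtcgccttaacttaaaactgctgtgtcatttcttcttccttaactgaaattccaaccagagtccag
GC bases made up 39.2% of this stretch, which put it at the 11.0th percentile of 32851 mouse promoters, whose median was 52.4%. The 9 listed promoters of the family (3 for Mitf, 1 for Tfec, 3 for Tfeb and 2 for Tfe3) were searched on both strands, over 300 bases each, for CACGTG, the E-box core of CLEAR sites, for CATGTG, the M-box core, and for AACAAT, a Sox site. CACGTG reads the same on both strands, no stretch of bases can match more than 1 of the motifs in full, and none of them was found in any of the 9. Over all promoters of the same length, 7.15% held CACGTG, 14.15% CATGTG and 10.72% AACAAT, so an absence from 9 windows is no finding about any factor. The counts are per gene and do not show which start was used.

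The protein-coding neighbours of Tfec on chromosome 6 did not share its pattern as a group. Ppp1r3a, a glycogen-targeting subunit of protein phosphatase 1, came closest: it had 162, 138 and 109 counts in the Xap5 knockout libraries and 0 in the other 8. Its mean was at least 46.3-fold higher in the Xap5 knockout than the WT floor. Foxp2, a forkhead factor that lies between Ppp1r3a and Mdfic, had 32, 0 and 17 counts in the Xap5 knockout and 0 elsewhere. Neither was read in the Nono knockout, where Tfec was.

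The nearest gene on the one side, Mdfic, averaged 73.3 CPM in WT, 81.7 in the Xap5 knockout, 92.1 in the Nono knockout and 83.7 in the Sox5 knockout. The nearest on the other side, Tes, averaged 63.2, 51.0, 84.8 and 34.2 CPM in the same order. Cav1, the main protein of caveolae, was higher in every knockout, by 1.16 in the Xap5 knockout, 2.77 in the Nono knockout and 1.88 in the Sox5 knockout on the log2 scale (adjusted p = 1.65e-11, 1.81e-17 and 4.99e-15). Among the 8 neighbours tested, 3 rose and 2 fell in the Xap5 knockout, 4 rose and 0 fell in the Nono knockout, and 3 rose and 2 fell in the Sox5 knockout. Of all tested genes, 23.2%, 23.5% and 30.6% were called higher in the same order, and 22.3%, 25.1% and 30.3% lower. Ppp1r3a and Foxp2, counted among the neighbours that rose in the Xap5 knockout, passed the low-count filter only through that group, so their calls support nothing further. Met, the hepatocyte growth factor receptor and a known Mitf target, lay next to Cav1 and fell by 0.95 in the Sox5 knockout (adjusted p = 7.45e-10).

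**Figure D2:**
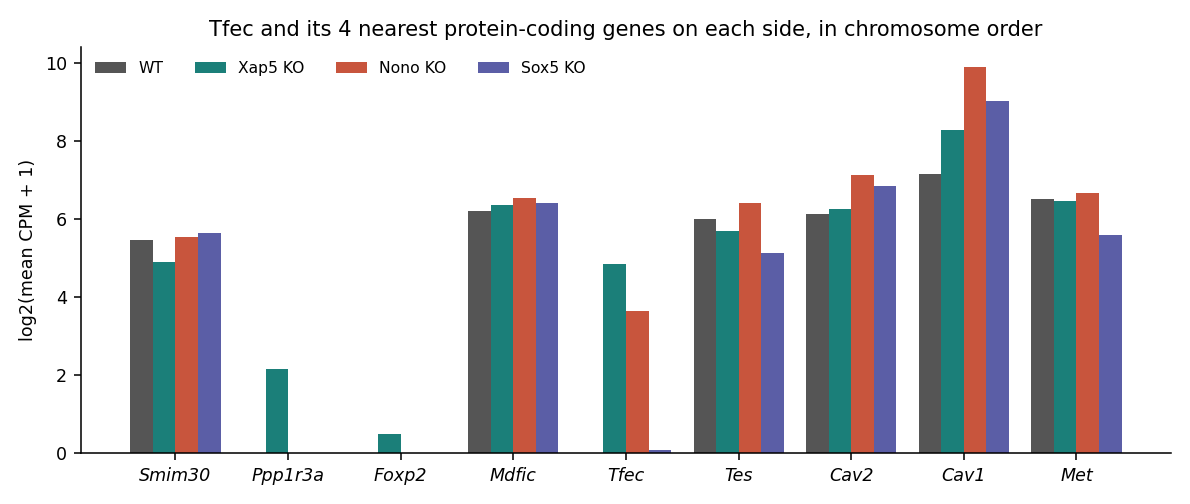
Mean level of Tfec and its 4 nearest protein-coding genes on each side, in chromosome order, as log2(mean CPM + 1) with 1 bar per genotype. Ppp1r3a and Foxp2 have bars only in the Xap5 knockout, Tfec has tall bars in the Xap5 knockout and the Nono knockout, and Cav1 is lowest in WT.

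Tfeb, the main inducer of lysosomal and autophagy genes in starvation, was the least abundant member in WT that was read, and it rose in all 3 knockouts. It lay at 4.24 and 4.79 CPM in WT and at 11.6, 12.4 and 14.2 CPM in the Xap5 knockout. It lay at 6.51, 7.28 and 7.37 CPM in the Nono knockout and at 13.8, 10.2 and 12.9 CPM in the Sox5 knockout. No knockout library reached down to the WT range, and the Nono knockout libraries lay between WT and the other knockouts.

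Against WT, the Tfeb change was 1.496 ± 0.174 in the Xap5 knockout (log2 ± SE), or 2.82-fold, with an adjusted p of 4.39e-07. It was 0.64 ± 0.172, or 1.56-fold, in the Nono knockout (adjusted p = 0.00382) and 1.44 ± 0.174, or 2.72-fold, in the Sox5 knockout (adjusted p = 3.31e-07). The Xap5 knockout exceeded the Nono knockout by 0.85 ± 0.147 (adjusted p = 4.99e-05), and the Nono knockout lay below the Sox5 knockout by a difference of -0.80 ± 0.148 (adjusted p = 7.35e-05). The Xap5 knockout and the Sox5 knockout differed by 0.053, with a 95% interval of -0.23 to 0.34, their libraries overlapped, and the test did not call them (adjusted p = 0.775). The tests came from edgeR's quasi-likelihood fit, with Benjamini-Hochberg adjustment over all tested genes.

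Calls were common in this experiment. In either direction, 45.5% of all tested genes were called in the Xap5 knockout against WT, 48.6% in the Nono knockout and 60.9% in the Sox5 knockout. The higher calls made up 23.2%, 23.5% and 30.6% of all tested genes in the same order, and the lower calls 22.3%, 25.1% and 30.3%. Between the knockouts, 61.6% were called for the Xap5 knockout against the Sox5 knockout and 63.5% for the Nono knockout against the Sox5 knockout. All 9 tests of Mitf, Tfeb and Tfe3 against WT were called. With calls this frequent, the size of a change tells more than the call. These shares are also the background for the counts of called genes in the lists below. The absolute Tfeb change was larger than that of 90.2% of tested genes in the Xap5 knockout, 72.7% in the Nono knockout and 86.7% in the Sox5 knockout. In the same order, these shares were 52.9%, 75.9% and 64.2% for Mitf and 47.5%, 59.6% and 18.1% for Tfe3.

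Mitf, the melanocyte and osteoclast factor, was lower than WT in all 3 knockouts. It lay at 69.2 and 70.1 CPM in WT and at 55.0, 52.8 and 57.2 CPM in the Xap5 knockout. In the Nono knockout it lay at 40.1, 41.9 and 44.3 CPM, and in the Sox5 knockout at 45.8, 39.3 and 42.9 CPM. The WT libraries were the highest, the Xap5 knockout was intermediate without overlap, and the Nono knockout and the Sox5 knockout overlapped each other.

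Mitf fell by 0.34 ± 0.0812 in the Xap5 knockout (log2 ± SE, adjusted p = 0.00165), by 0.73 ± 0.0812 in the Nono knockout (adjusted p = 2.02e-07) and by 0.71 ± 0.0815 in the Sox5 knockout (adjusted p = 1.75e-07). As folds, WT was 1.27, 1.65 and 1.63 times these knockouts. The Xap5 knockout stood above the Nono knockout by 0.39 (adjusted p = 0.000163) and above the Sox5 knockout by 0.37 (adjusted p = 0.000214). The Nono knockout and the Sox5 knockout differed by -0.020, with a 95% interval of -0.17 to 0.13 (adjusted p = 0.836). Mitf lies on chromosome 6, where the median of 628 other tested genes was itself -0.25 in the Xap5 knockout, -0.19 in the Nono knockout and -0.35 in the Sox5 knockout. With the chromosome medians removed, the change of Mitf was -0.091 in the Xap5 knockout and no longer called (adjusted p = 0.414). The calls in the Nono knockout and the Sox5 knockout stood, with smaller changes of -0.54 and -0.36.

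Tfe3, which shares many lysosomal targets with Tfeb, moved in different directions. It lay at 88.3 and 87.9 CPM in WT and at 112.9, 107.3 and 103.8 CPM in the Xap5 knockout. In the Nono knockout it lay at 63.9, 66.5 and 64.0 CPM, and in the Sox5 knockout at 98.1, 98.99 and 98.2 CPM. The 4 groups did not overlap: The Xap5 knockout was highest, then the Sox5 knockout, WT and the Nono knockout.

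Tfe3 rose by 0.29 ± 0.0618 in the Xap5 knockout (log2 ± SE, adjusted p = 0.00053) and fell by 0.44 ± 0.0613 in the Nono knockout (adjusted p = 3.92e-06). In the Sox5 knockout the change was 0.16 ± 0.0619 (adjusted p = 0.0299). That call was lost with library totals in place of TMM (0.046, adjusted p = 0.523), with no filter on low counts, and without WT replicate 1 (adjusted p = 0.127), WT replicate 2 (adjusted p = 0.134), Sox5 knockout replicate 2 (adjusted p = 0.0622) or Sox5 knockout replicate 3 (adjusted p = 0.053). The knockouts differed by 0.74 for the Xap5 knockout against the Nono knockout (adjusted p = 4.55e-10) and by -0.60 for the Nono knockout against the Sox5 knockout (adjusted p = 5.4e-09). The Xap5 knockout exceeded the Sox5 knockout by 0.13 (adjusted p = 0.0401), a call that 7 of the 11 fits with 1 library left out did not keep.

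The changes of Tfe3 were close to those of its chromosome. Tfe3 lies on the X chromosome, as do Fam50a and Nono. The median of 437 other tested X-linked genes was 0.36 in the Xap5 knockout, -0.33 in the Nono knockout and 0.13 in the Sox5 knockout, while the medians of all genes were 0.00262, -0.0196 and -0.00581. With the chromosome medians removed, Tfe3 changed by -0.062 in the Xap5 knockout (adjusted p = 0.467), -0.11 in the Nono knockout (adjusted p = 0.154) and 0.022 in the Sox5 knockout (adjusted p = 0.78). In contrast to Tfe3, Tfeb on chromosome 17 kept its 3 calls in that fit, and the median of its 657 chromosome neighbours was 0.17, 0.02 and 0.02. What shifted the X-linked genes was not tested.

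**Figure D3:**
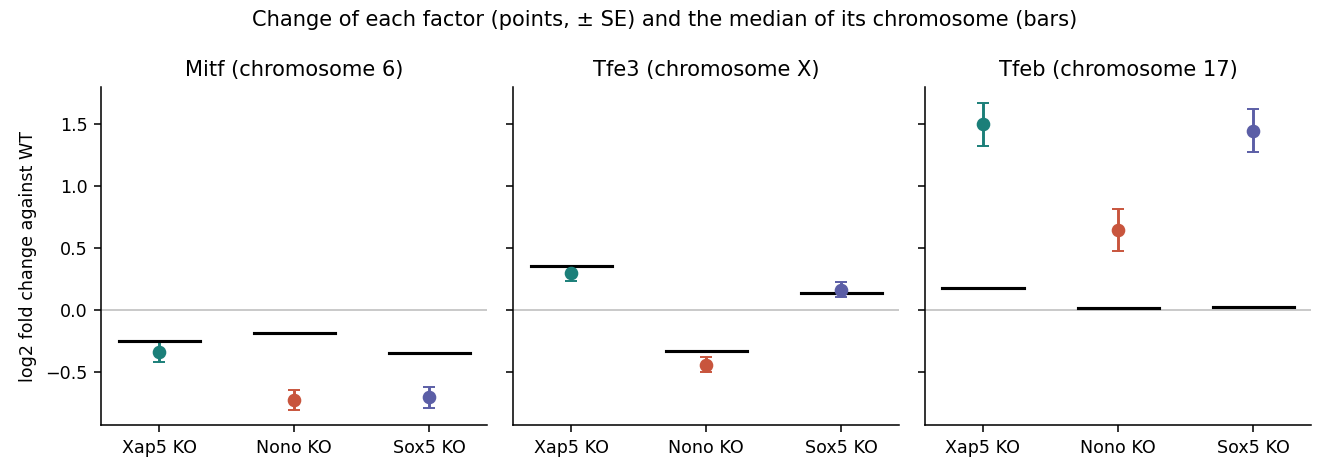
Log2 fold change against WT of Mitf, Tfe3 and Tfeb in each knockout (points, with bars of ± 1 SE), and the median over the other tested genes of the same chromosome (black lines). Tfe3 lies close to the X-chromosome median in all 3 knockouts, Mitf lies well below the chromosome 6 median in the Nono knockout and the Sox5 knockout, and Tfeb lies far above the chromosome 17 median.

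The genes next to Tfe3 shared its order in 1 case, Gripap1. Of the 8 nearest protein-coding neighbours of Tfe3, 2 rose and 0 fell in the Xap5 knockout, 1 rose and 5 fell in the Nono knockout, and 3 rose and 0 fell in the Sox5 knockout. Gripap1, the first on one side, changed by 0.30 in the Xap5 knockout, -0.35 in the Nono knockout and 0.03 in the Sox5 knockout. Ccdc120, the first on the other side, changed by 0.04, -0.77 and -0.37. Near Mitf, the forkhead gene Foxp1 behaved differently from Mitf itself. Foxp1 rose by 1.59 in the Xap5 knockout (adjusted p = 8.66e-10) and by 1.58 in the Nono knockout (adjusted p = 6.48e-10), and its change in the Sox5 knockout was 0.25 (adjusted p = 0.0759). Near Tfeb, Frs3 changed by -0.25, -1.01 and -0.44 in the Xap5 knockout, the Nono knockout and the Sox5 knockout, called in the Nono knockout alone, and Mdfi fell by 2.02 in the Sox5 knockout (adjusted p = 2.57e-06).

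To set the members beside each other, CPM was divided by the length of all annotated exons in kilobases. In WT, Mitf stood at 11.2 CPM per kb, Tfe3 at 9.51, Tfeb at 0.797 and Tfec at 0. In the Xap5 knockout the order was Tfe3 at 11.7, Mitf at 8.88, Tfec at 5.03 and Tfeb at 2.25 CPM per kb. By this measure the leading member changed from Mitf to Tfe3, and Tfec ranked above Tfeb. In CPM not divided by length, Tfe3 already led in WT, with a mean of 88.1 against 69.7 for Mitf.

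In the Nono knockout, Tfe3 at 7.00 and Mitf at 6.80 CPM per kb overlapped, followed by Tfec at 2.08 and Tfeb at 1.24. In the Sox5 knockout, Tfe3 stood at 10.6, Mitf at 6.89, Tfeb at 2.17 and Tfec at 0.00992 CPM per kb. Apart from the overlapping pair in the Nono knockout, neighbours in these orders were separated beyond the spread between libraries. With the longest transcript as the length the order was the same in each group, but Mitf and Tfe3 in WT lay close, at 14.3 and 13.9 CPM per kb. The levels of Tfec in the Xap5 knockout and the Nono knockout became 8.31 and 3.43 CPM per kb, and that of Tfeb in the Xap5 knockout 5.44.

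As shares of the family sum per length, Mitf went from 52.2% in WT to 31.9% in the Xap5 knockout, 39.7% in the Nono knockout and 34.9% in the Sox5 knockout. Tfe3 held 44.1%, 41.9%, 40.9% and 54.0% in the same order, and Tfeb 3.70%, 8.08%, 7.27% and 11.0%. With the longest transcript as the length, the Tfeb share was 6.05% to 6.75% in WT, 11.9% to 14.2% in the Xap5 knockout, 11.3% to 12.3% in the Nono knockout and 15.5% to 19.1% in the Sox5 knockout. Tfec made up 18.1% ± 1.39 (SD, n = 3) in the Xap5 knockout and 12.1% ± 0.835 (SD, n = 3) in the Nono knockout. The summed family level was 21.5 ± 0.137 CPM per kb in WT (SD, n = 2), 27.8 ± 0.238 in the Xap5 knockout, 17.1 ± 0.352 in the Nono knockout and 19.7 ± 0.784 in the Sox5 knockout (SD, n = 3 each). Without Tfec the sum would be 22.8 in the Xap5 knockout and 15.04 in the Nono knockout. The family was thus highest in the Xap5 knockout and lowest in the Nono knockout with or without Tfec, and no library of these groups overlapped WT.

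Pairs of members did not follow each other closely across the 11 libraries. Pearson's r of log2 CPM ran from -0.39 for Mitf with Tfeb to 0.58 for Tfeb with Tfe3, and it was 0.28 for Tfec with Tfeb. These libraries share groups, so r is given as a description. The genes most like Tfec over the 11 libraries were Fbln1, a matrix glycoprotein (r = 0.988), Kctd10 (0.987), Phldb2 (0.985), Dppa2 (0.984) and Limd1 (0.979). Fbln1 averaged 1.14 CPM in WT, 10.3 in the Xap5 knockout, 8.43 in the Nono knockout and 1.09 in the Sox5 knockout, and Dppa2 stayed under 1 CPM in every group mean.

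The genes most like Mitf were Sema6c (r = 0.981), Arhgap6, Gtf2i, Ago4 and Sox4 (0.974). Those most like Tfeb were H4c9 (0.974), Tmem47, Mark1, Rnase4 and Rnase1 (0.966), and those most like Tfe3 were Peg3 (0.990), Smc5, Irx2, Brcc3 and Ripk2 (0.984). The imprinted gene Peg3 averaged 100.2 CPM in WT, 255.5 in the Xap5 knockout, 39.6 in the Nono knockout and 203.0 in the Sox5 knockout. With Spearman's rho in place of Pearson's r, the top 5 shared 0 genes for Mitf, 0 for Tfec, 2 for Tfeb and 1 for Tfe3, so these names are loose.

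The genes that act on the factors came next. Of 34 tested regulators of mTORC1 and the Rag GTPases, which recruit Tfeb and Tfe3 to the lysosome, 1 rose and 14 fell in the Xap5 knockout, 6 rose and 12 fell in the Nono knockout, and 9 rose and 14 fell in the Sox5 knockout. Their median changes were -0.16, -0.13 and -0.04. Calls in either direction made up 44.1%, 52.9% and 67.6% of the list, beside 45.5%, 48.6% and 60.9% of all tested genes. The lowest called gene in the Xap5 knockout and the Nono knockout was Rragd, a Rag GTPase that is itself a target of Mitf, Tfeb and Tfe3. The highest called was Sesn2, a leucine sensor induced by stress, at 0.60 and 0.90.

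Rragd lay at 22.3 and 25.8 CPM in WT, at 7.33, 6.40 and 7.60 in the Xap5 knockout and at 4.19, 5.87 and 5.97 in the Nono knockout. In the Sox5 knockout it lay at 23.6, 22.2 and 23.6 CPM, overlapping WT. Rragd fell by 1.76 ± 0.146 in the Xap5 knockout (log2 ± SE, adjusted p = 3.1e-09) and by 2.17 ± 0.148 in the Nono knockout (adjusted p = 9.82e-11), and its change in the Sox5 knockout was -0.05 (adjusted p = 0.767). The Xap5 knockout and the Nono knockout also differed directly from the Sox5 knockout, by -1.70 (adjusted p = 7.11e-10) and -2.11 (adjusted p = 2.61e-11). Tfec was read in the same knockouts, but it was chosen for that pattern, so the match with Rragd supports no link between them.

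Folliculin and its partners, which activate Rragc and Rragd and so hold Tfeb and Tfe3 in the cytoplasm, were also lower. Flcn averaged 106.1 CPM in WT, 74.5 in the Xap5 knockout, 68.9 in the Nono knockout and 117.5 in the Sox5 knockout. It fell by 0.51 in the Xap5 knockout (adjusted p = 6.92e-06) and by 0.62 in the Nono knockout (adjusted p = 3.91e-07), with a change of 0.15 in the Sox5 knockout (adjusted p = 0.0899). Fnip1 fell by 0.39, 0.54 and 0.62 and Fnip2 by 0.54, 0.64 and 1.05 in the Xap5 knockout, the Nono knockout and the Sox5 knockout, called in each. Rragc fell by 0.38 in the Xap5 knockout (adjusted p = 3.5e-05) and by 0.15 in the Sox5 knockout (adjusted p = 0.0424), and its change in the Nono knockout was -0.01 (adjusted p = 0.908).

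Among 22 tested kinases, calcineurin subunits and adaptor proteins that act on the factors, 6 rose and 5 fell in the Xap5 knockout, 3 rose and 8 fell in the Nono knockout, and 7 rose and 10 fell in the Sox5 knockout. Calls in either direction made up 50%, 50% and 77.3% of this list, beside 45.5%, 48.6% and 60.9% of all tested genes. Without WT replicate 2, 3 rose in the Xap5 knockout and 5 fell in the Nono knockout. Ppp3ca, the catalytic subunit of the calcineurin phosphatase that frees Tfeb for nuclear entry, fell by 1.65 in the Sox5 knockout (adjusted p = 5.64e-15) and by 0.52 in the Xap5 knockout (adjusted p = 7.04e-07). Map4k3, a kinase of the amino acid pathway, rose by 0.51 in the Xap5 knockout (adjusted p = 4.26e-06). Mcoln1, the lysosomal calcium channel upstream of calcineurin and also a Tfeb target, fell by 0.42 in the Xap5 knockout (adjusted p = 7.21e-05) and by 0.43 in the Nono knockout (adjusted p = 5.37e-05). Its change in the Sox5 knockout was -0.09 (adjusted p = 0.294).

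**Figure D4:**
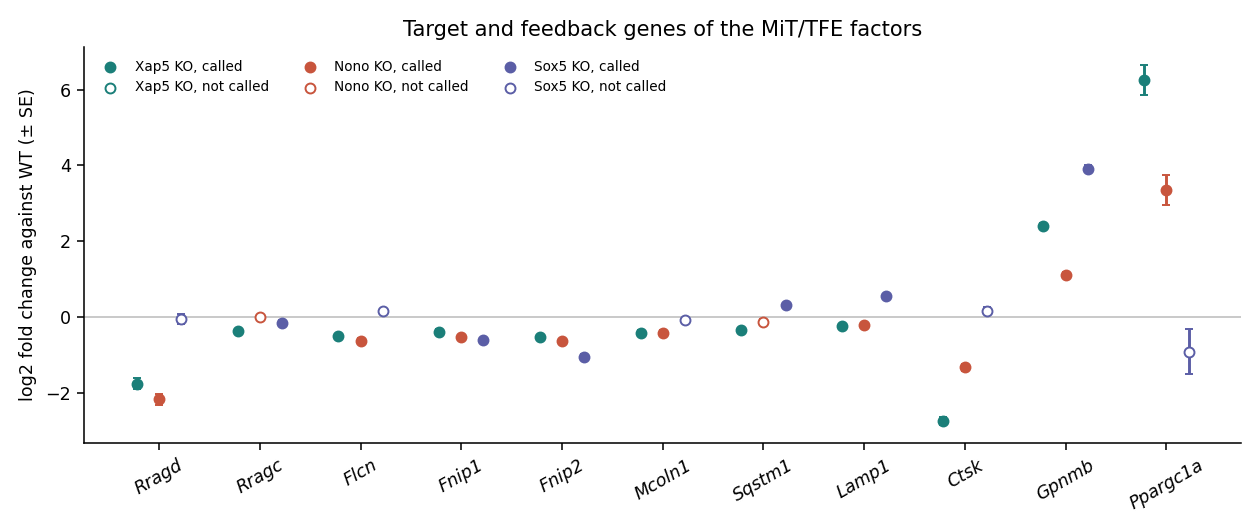
Log2 fold change against WT (± SE) of 11 target and feedback genes of the factors in each knockout, with filled points for genes called by edgeR's quasi-likelihood test and open points for those not called. Rragd and Ctsk lie far below 0 in the Xap5 knockout and the Nono knockout and near 0 in the Sox5 knockout, Gpnmb lies above 0 in all 3, and Ppargc1a is high in the Xap5 knockout and the Nono knockout.

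Of the 22 tested genes known as feedback and metabolic targets of the family, 8 rose and 11 fell in the Xap5 knockout, 7 rose and 10 fell in the Nono knockout, and 9 rose and 8 fell in the Sox5 knockout. The list did not move as a block, and its members differed widely in size. It shares genes with other lists described here, among them Rragd, Flcn, Mcoln1, Sqstm1 and Atf4, so the list counts are not separate results. Ppargc1a, the mitochondrial co-activator induced by Tfeb in liver and by Mitf in melanocytes, lay at 0.298 and 0.59 CPM in WT. It lay at 30.6, 32.03 and 40.01 CPM in the Xap5 knockout, at 4.27, 4.53 and 5.00 in the Nono knockout and at 0.0618, 0.102 and 0.542 in the Sox5 knockout. No Xap5 or Nono knockout library overlapped WT or the Sox5 knockout. Ppargc1a rose by 6.24 ± 0.397 in the Xap5 knockout (adjusted p = 2.43e-08) and by 3.35 ± 0.394 in the Nono knockout (adjusted p = 9.8e-06), and the Xap5 knockout exceeded the Nono knockout by 2.90 (adjusted p = 5.21e-07). For Ppargc1a the order was the Xap5 knockout, then the Nono knockout, with WT and the Sox5 knockout low. Tfec had the same order, but it was chosen for being read in the Xap5 knockout and the Nono knockout. The likeness therefore supports no link between them.

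Gpnmb, a lysosomal glycoprotein and a sensitive target of Mitf and Tfe3, had another order. It lay at 161.0 and 148.9 CPM in WT, at 805.3, 761.1 and 881.4 in the Xap5 knockout, at 337.5, 332.4 and 334.4 in the Nono knockout and at 2253, 2525 and 2237 in the Sox5 knockout. It rose in all 3 knockouts, by 2.40, 1.11 and 3.92 (adjusted p = 4.31e-16, 3.82e-11 and 7.58e-19), and the groups did not overlap. Like Gpnmb, Tfeb rose in all 3 knockouts and least in the Nono knockout, but Tfeb was not called between the Xap5 knockout and the Sox5 knockout. The order of Gpnmb among the knockouts was not that of Tfec, Tfe3 or Mitf. Likeness or unlikeness in order supports nothing about which member acts on Gpnmb, and that was not tested. Sqstm1, the autophagy receptor p62, fell by 0.35 in the Xap5 knockout (adjusted p = 3.65e-05) and rose by 0.31 in the Sox5 knockout (adjusted p = 7.35e-05), with a change of -0.12 in the Nono knockout (adjusted p = 0.0867).

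The lysosomal CLEAR genes, which encode hydrolases, membrane proteins and proton pump subunits, split by knockout. Of 47 tested, 11 rose and 23 fell in the Xap5 knockout, 5 rose and 29 fell in the Nono knockout, and 26 rose and 10 fell in the Sox5 knockout. Their median changes were -0.19, -0.22 and 0.19, beside the medians of all genes given above. Compared directly, 7 were higher and 29 lower in the Xap5 knockout than in the Sox5 knockout, where 31.1% of all genes were higher and 30.4% lower. In the Nono knockout against the Sox5 knockout, 6 were higher and 34 lower, where 30.9% of all genes were higher and 32.6% lower. The number that rose in the Xap5 knockout was 5 with chromosome medians removed, 7 without WT replicate 1 and 6 without WT replicate 2.

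Ctsk, the collagen-degrading cathepsin of osteoclasts, lay at 83.2 and 84.9 CPM in WT, at 12.7, 11.2 and 13.7 in the Xap5 knockout and at 30.4, 31.95 and 37.9 in the Nono knockout. It lay at 95.2, 99.1 and 88.9 CPM in the Sox5 knockout. Ctsk fell by 2.75 in the Xap5 knockout (adjusted p = 2.94e-15) and by 1.33 in the Nono knockout (adjusted p = 1.5e-10), and its change in the Sox5 knockout was 0.17 (adjusted p = 0.132). Lamp1, an abundant lysosomal membrane protein, fell by 0.23 and 0.21 in the Xap5 knockout and the Nono knockout (adjusted p = 0.00158 and 0.00308) and rose by 0.56 in the Sox5 knockout (adjusted p = 2.12e-08). Lipa, the lysosomal acid lipase, rose in all 3 knockouts, by 0.57, 1.00 and 0.93, while more of the list fell than rose in the first 2 of them. The highest call in the Sox5 knockout was Atp6v1b2, a proton pump subunit, at 1.44. Ctsf had the lowest called log2 values in the Xap5 knockout and the Nono knockout but was under 3 CPM in WT. Exons of Lamp1, Rragc and Sqstm1 overlap a gene on the other strand, and the handling of strand is not given in the sources used here, so their counts may hold reads of that gene. The same limit holds for other genes named in the text, among them Atg4d with 1405 overlapping bases and Sox5 with 1330.

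**Figure D5:**
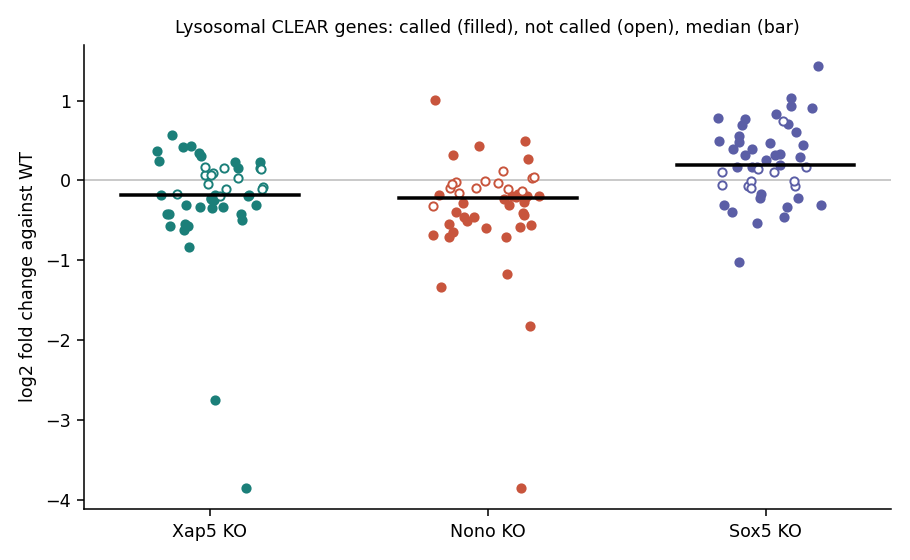
Log2 fold change against WT of each of the 47 tested lysosomal CLEAR genes, with filled points for called genes, open points for genes not called and a black bar at the median. The medians lie at -0.19 in the Xap5 knockout, -0.22 in the Nono knockout and 0.19 in the Sox5 knockout, and the points near -2.75 and -1.33 are Ctsk.

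The E-box core that the factors bind was looked for in the promoters of these genes. RefSeq's table held 42 promoters for 37 of the 47 genes, and 18 genes had CACGTG on either strand in their 300 bases, the same 18 of 42 promoters (42.86%), against 7.15% of all promoters. None of the 10 promoters of fibroblast markers held it. This is a feature by which such targets are known, and a match is not evidence of binding here. Of the 18 with the core, 5 rose and 10 fell in the Xap5 knockout, 4 rose and 8 fell in the Nono knockout, and 11 rose and 1 fell in the Sox5 knockout. Of the 19 with a promoter lacking it, 5 rose and 8 fell, 1 rose and 12 fell, and 9 rose and 6 fell. The following matches, from the target and feedback genes fixed by name, show what the family's binding core looks like next to genes described above. Each has 10 bases on either side, 5′ to 3′, with the core in capitals (GRCm38.p6).
Fnip1, chr11:54438094-54438119, + strand: agtttgctgcCACGTGatacggctcg
Rragc, chr4:123917311-123917336, + strand: tgattccgggCACGTGatagtaccac
Mcoln1, chr8:3500438-3500463, + strand: tcgcgcttgtCACGTGttcagttcag
Mcoln1, chr8:3500464-3500489, + strand: gcgccccgctCACGTGaccgcggcgc
Lamp1, chr8:13159090-13159115, + strand: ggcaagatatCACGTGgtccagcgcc
Lamp1, chr8:13159106-13159131, + strand: gtccagcgccCACGTGatgccgactg
Lamp1, chr8:13159123-13159148, + strand: tgccgactggCACGTGaccacatcac
Lamp1, chr8:13159136-13159161, + strand: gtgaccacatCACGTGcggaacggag
Of the 11 target and feedback genes fixed by name, these 4 had a match with 10 bases on either side inside the window. Rragd, Flcn, Fnip2, Gpnmb, Ppargc1a, Sqstm1 and Ctsk had no such match. Cores that touch the outermost 10 bases of a window were not counted here. Lamp1 and Mcoln1 held several cores close together.

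Autophagy targets moved less. Of 30 tested, 3 rose and 11 fell in the Xap5 knockout, 4 rose and 13 fell in the Nono knockout, and 11 rose and 6 fell in the Sox5 knockout, with medians of -0.082, -0.16 and 0.055. The 11 of 30 that rose in the Sox5 knockout stand beside 30.6% of all genes that rose there, a share near that background. With library totals in place of TMM, 0 rose and 20 fell in the Nono knockout, and 11 fell in the Sox5 knockout. Without WT replicate 2, 1 rose and 7 fell in the Xap5 knockout and 2 rose in the Nono knockout, and 2 also rose in the Nono knockout without WT replicate 1. Atg12, a ubiquitin-like protein of autophagosome formation, was the lowest called gene in the Xap5 knockout at -0.85 and in the Nono knockout at -0.94 (adjusted p = 9.12e-09 and 1.44e-09). Map1lc3a, an autophagosome membrane protein, rose by 0.47 in the Xap5 knockout (adjusted p = 1.76e-05). In the Sox5 knockout, Atg4d was the highest called gene at 0.80 and Tecpr1 the lowest called at -0.89.

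Of the genes known to control Mitf, more fell than rose in each knockout. Of 15 tested, 2 rose and 7 fell in the Xap5 knockout, 4 rose and 10 fell in the Nono knockout, and 1 rose and 13 fell in the Sox5 knockout, with medians of -0.14, -0.44 and -0.73. The list holds inducers and repressors alike, and it holds Sox5 itself, one of the targeted genes. Sox9, which can bind the Mitf promoter, averaged 340.8 CPM in WT, 143.3 in the Xap5 knockout, 194.0 in the Nono knockout and 106.1 in the Sox5 knockout, and fell in each (log2 changes of -1.25, -0.81 and -1.68). Atf4, a stress factor that represses Mitf in melanoma cells, rose by 0.57, 1.25 and 1.32. Sox10 and Pax3, the main Mitf inducers in melanocytes, were barely read: Sox10 averaged 0.462 CPM in WT and 0.802 in the Xap5 knockout and had no counts in the other knockouts, and Pax3 reached at most 27 counts in any library. Without WT replicate 2, 1 gene of this list rose in the Xap5 knockout and 2 in the Nono knockout.

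Genes tied to Mitf in other cells were read to different extents. Of the 24 melanocyte genes in the table, 7 had no counts in any library, among them Tyr and Dct, the pigment enzymes, and 12 passed the filter. Of these, 3 rose and 2 fell in the Xap5 knockout, 3 rose and 3 fell in the Nono knockout, and 1 rose and 3 fell in the Sox5 knockout. The melanocyte list also holds Sox10 and Pax3, the inducers of Mitf named above, which are counted in both lists. Pax3 was its highest call in the Nono knockout, and Sox10 its lowest in the Nono knockout and the Sox5 knockout. Pmel, the melanosome fibril protein, averaged 0.317 to 0.704 CPM in the 4 groups and passed no test. Other genes of the list moved in both directions. Mbp, the lowest call in the Xap5 knockout, fell by 1.25 there (adjusted p = 0.0311). Mlana, a melanosome protein, had 14 and 25 counts in WT and 208, 78 and 133 in the Xap5 knockout, a rise of 2.95 (adjusted p = 0.00152), and it fell by 2.78 in the Sox5 knockout (adjusted p = 0.00781). Oca2, a melanosome channel protein, had 0 counts in WT and the Nono knockout, 29, 26 and 12 in the Xap5 knockout and 14, 9 and 18 in the Sox5 knockout, or at least 7.56-fold and 5.88-fold higher. With 1 library left out, 1 melanocyte gene fell in the Xap5 knockout without WT replicate 2 or Xap5 knockout replicate 3, 1 rose in the Nono knockout without WT replicate 1 or WT replicate 2, and 1 fell in the Nono knockout without WT replicate 1. Osteoclast genes were better read, with a summed level of 456 to 486 CPM in WT for the 15 in the table. Ctsk, Clcn7 and Ostm1 among them are also counted with the lysosomal CLEAR genes. Among the 8 tested, 1 rose and 6 fell in the Xap5 knockout, 0 rose and 6 fell in the Nono knockout, and 2 rose and 3 fell in the Sox5 knockout. The rise in the Xap5 knockout was that of Src, a kinase, at 0.21 (adjusted p = 0.0391), and 0 rose without WT replicate 1, Xap5 knockout replicate 1 or Xap5 knockout replicate 2, and 2 without Sox5 knockout replicate 2. In the Sox5 knockout 1 rose without WT replicate 1, Sox5 knockout replicate 2 or Sox5 knockout replicate 3. Nfatc1, the master factor of osteoclast formation, lay at 62.00 and 66.3 CPM in WT and fell by 0.41 in the Xap5 knockout, 0.54 in the Nono knockout and 1.16 in the Sox5 knockout (adjusted p = 0.00313, 0.00022 and 5.52e-09). Mmp9, a matrix metalloproteinase, lay at 39.9 and 45.5 CPM in WT and fell by 2.61 in the Xap5 knockout (adjusted p = 3.46e-14). Tnfrsf11a, the receptor that starts osteoclast formation, had 46 and 89 counts in WT and 0 in every Xap5 and Nono knockout library, a level at least 20.5-fold and 19.1-fold lower. Acp5, the acid phosphatase of osteoclasts, had at most 8 counts in any library.

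Macrophages are the cells best known to read Tfec, so their markers were set beside it. The summed level of the 23 markers was 18.4 to 21.04 CPM in WT and 26.2 to 30.8 in the Xap5 knockout. It was 26.9 to 31.5 CPM in the Nono knockout and 26.5 to 29.1 in the Sox5 knockout. Of the 8 tested markers, 1 rose and 1 fell in the Xap5 knockout, 2 rose and 1 fell in the Nono knockout, and 3 rose and 2 fell in the Sox5 knockout. Of the markers, Spi1, Itgam and Adgre1 had at most 3, 2 and 6 counts in any library. Csf3r, a granulocyte receptor gene described as a Tfec target, had none. Csf1r and Cd68 were read in every library. Csf1r had 11 and 36 counts in WT and 36, 78 and 56 in the Xap5 knockout. It had 20, 28 and 31 in the Nono knockout and 34, 38 and 22 in the Sox5 knockout. Cd68 had 87 and 80 counts in WT and 114, 130 and 115 in the Xap5 knockout. It had 45, 148 and 45 in the Nono knockout and 78, 79 and 59 in the Sox5 knockout. Other markers did move. Nos2, the inducible nitric oxide synthase, lay at 1.49 and 1.18 CPM in WT and at 13.9, 14.8 and 10.1 in the Xap5 knockout, and it rose by 3.28 there (adjusted p = 2.17e-07) and fell by 1.44 in the Nono knockout (adjusted p = 0.0034). Lyz2, a lysozyme gene whose near-identical copy Lyz1 can share its reads, lay at 0.0992 and 0.159 CPM in WT, at 1.53, 2.31 and 1.77 in the Nono knockout and at 1.14, 1.22 and 1.59 in the Sox5 knockout. It rose by 3.82 in the Nono knockout (adjusted p = 0.000428) and by 3.31 in the Sox5 knockout (adjusted p = 0.00103). Ptprc, the leukocyte phosphatase CD45, lay at 6.00, 7.31 and 6.68 CPM in the Nono knockout against 0.124 and 0.0908 in WT. It lay at 0, 0.219 and 0.412 CPM in the Xap5 knockout. What part macrophages might have in the Tfec counts was not tested. Leaving out 1 library gave 1 to 2 macrophage markers higher in the Xap5 knockout (2 without WT replicate 2 or Xap5 knockout replicate 1). It gave 0 to 2 lower in the Sox5 knockout (0 without WT replicate 1 or Sox5 knockout replicate 3, and 1 without WT replicate 2, Xap5 knockout replicate 2, Sox5 knockout replicate 1 or Sox5 knockout replicate 2). Of 12 genes of the retinal pigment epithelium, 5 were tested, with 1 higher and 2 lower in the Xap5 knockout, 1 and 1 in the Nono knockout, and 1 and 2 in the Sox5 knockout, and Rpe65 and Otx2 had no counts. With 1 library left out, 0 to 2 of these fell in the Xap5 knockout (0 without WT replicate 1 or Xap5 knockout replicate 2, 1 without WT replicate 2). In the Nono knockout 0 to 2 fell (0 without WT replicate 1 or Sox5 knockout replicate 3, 2 without Nono knockout replicate 3), and 0 rose without WT replicate 1.

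Other factors of the same structural class, which bind similar E-boxes, gave a mixed picture. Of 18 tested, 6 rose and 4 fell in the Xap5 knockout, 2 rose and 6 fell in the Nono knockout, and 7 rose and 5 fell in the Sox5 knockout. In the Xap5 knockout 2 rose and 2 fell without WT replicate 1, 3 rose and 2 fell without WT replicate 2, and 2 fell without Xap5 knockout replicate 2 and with a replicate block. Myc rose by 1.02 in the Nono knockout (adjusted p = 0.000327). Usf3 fell by 1.23 in the Sox5 knockout (adjusted p = 2.21e-09), and Srebf1, the lipid synthesis factor, fell by 0.41 in the Xap5 knockout (adjusted p = 1.91e-05). The fibroblast markers moved as well, with 6 of 15 higher and 6 lower in the Xap5 knockout, 12 higher and 0 lower in the Nono knockout, and 10 higher and 4 lower in the Sox5 knockout. Their summed level was 54058 to 59167 CPM in the Nono knockout against 26693 to 26857 in WT, and what part this has in the CPM of the members was not tested.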

How the data were processed

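RNA from 11 libraries of serum-starved NIH/3T3 cells was used. The values are gene counts in 1 table that the authors deposited. These estimated counts were deposited by the authors as whole numbers per gene, without further normalization in the values, and the value 2 occurred 3302 times and the value 1 857 times. Mates may have been counted separately, so floors refer to counts, not molecules. HISAT2 2.1.0, StringTie 1.3.3b, DESeq2 1.12.4 and the build GRCm39 are named per the submitters' processing notes, without their roles; strand handling is not given in the sources used here.

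Counts were fitted with edgeR 4.0.16 in R 4.3.3 over all 11 libraries, with 1 mean per group, TMM factors and robust quasi-likelihood dispersions. The low-count filter (filterByExpr, at 10 counts and a total of 15) kept 13332 of 21684 genes. P-values came from edgeR's quasi-likelihood F-test, adjusted by Benjamini-Hochberg over all tested genes and called at an adjusted p under 0.05. The script was tested on simulated data. DESeq2 1.42.0 and other scalings, filters, sample choices, a replicate block, chromosome median offsets and leaving out each library were alternatives. GENCODE M21 (GRCm38) gave chromosomes, neighbours and exon lengths for 21591 of the gene IDs. Promoter and site sequences are RefSeq's on GRCm38.p6, and coordinates are given for these alone because the build of the counts differs.

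The members and gene lists were chosen with earlier results of these data known. Genes were named by rule: the members, the targeted genes, the highest and lowest call of a list in a knockout, the neighbours, the 5 most alike genes, and 18 pathway genes fixed by name. Mmp3, Sox9, Csf1r, Cd68 and the markers given only as unread or nearly so were picked after their values were seen. Not every gene that the rule names is reported here.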

Additional observations from a re-analysis of the deposited data

How the results depend on the processing

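Of the 19 fold changes of the members, 11 kept their direction and call under all 19 alternatives run for each, among them all 3 of Tfeb against WT, Mitf in the Nono knockout and the Sox5 knockout, and Tfec in the Xap5 knockout against the Nono knockout (1.21 to 1.39). Removing chromosome medians mattered most. It gave Tfe3 -0.062 in the Xap5 knockout, -0.11 in the Nono knockout and 0.022 in the Sox5 knockout against WT, 0.050 for the Xap5 knockout against the Nono knockout and -0.084 against the Sox5 knockout. It gave Mitf -0.091 in the Xap5 knockout against WT and -0.18 for the Nono knockout against the Sox5 knockout, now called, and Tfeb -0.10 for the Xap5 knockout against the Sox5 knockout, uncalled as before. For Tfe3 in the Sox5 knockout against WT, library totals gave 0.046 and no filter 0.15, both uncalled, and leaving out 1 library gave 0.15 to 0.16. For Tfe3 in the Xap5 knockout against the Sox5 knockout, DESeq2's size factors gave 0.12 and no filter 0.13, both uncalled, and leaving out 1 library gave 0.095 to 0.16. The uncalled differences changed sign with 1 library left out: Mitf in the Nono knockout against the Sox5 knockout ran from -0.075 to 0.034 (0.014 without Nono knockout replicate 1, 0.034 without Sox5 knockout replicate 1), and Tfeb in the Xap5 knockout against the Sox5 knockout from -0.062 to 0.14 (-0.031 without Xap5 knockout replicate 3, -0.062 without Sox5 knockout replicate 2). The cause was not tested.

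Using library totals in place of TMM, the all-gene median moved by -0.16 in the Nono knockout, -0.11 in the Sox5 knockout and 0.11 between the Xap5 knockout and the Nono knockout, and turned the Nono knockout calls from 3134 higher and 3342 lower into 2157 and 4989. Under them 19 mTORC1 and Rag regulators fell in the Nono knockout, 0 autophagy genes rose and 20 fell in the Nono knockout, and 11 fell in the Sox5 knockout. With chromosome medians removed, 5 CLEAR genes rose in the Xap5 knockout, 5 feedback genes fell in the Sox5 knockout and 2 regulators of Mitf rose in the Sox5 knockout. Leaving out 1 library gave ranges of 6 to 12 CLEAR genes higher in the Xap5 knockout, 1 to 3 autophagy genes higher and 7 to 11 lower in the Xap5 knockout, 2 to 4 higher in the Nono knockout, 5 to 8 feedback genes lower in the Sox5 knockout, and 1 to 2 and 2 to 4 regulators of Mitf higher in the Xap5 knockout and the Nono knockout. In all, 80 of 1368 list counts moved by over 1.5 times. Exon length moved the levels per length without changing their order.

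The replicate numbers did not pair the libraries: deviations of same-numbered libraries correlated at -0.0226 to 0.0465. With the number as a block, every call of the members stood; Tfeb in the Nono knockout against WT was 0.59 (adjusted p = 0.0104), and 5916, 6340 and 7911 genes were called in the Xap5 knockout, the Nono knockout and the Sox5 knockout against WT.

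WT has 2 libraries, each knockout is 1 line, and line differences and the knockouts cannot be told apart. Counts per gene do not separate starts or isoforms.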
